A study of Mus musculus with 24 samples.

Results

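The kidney-specific probes were the 150 probes, of 25697 on the array, whose raw signal stood furthest above brain and heart on every kidney array. For each probe the gap was taken as the log2 of its lowest raw signal over the 8 kidney arrays minus the log2 of its highest raw signal over the 16 heart and brain arrays. A gap of at least 1 was found for 358 probes, and the 150 largest of these are described here. Of the 150, 140 carried a gene symbol, for 122 genes, and 10 carried none in the annotation used. The members were thus chosen by their raw signal in the 3 tissues, so the higher level in kidney is a description and was not tested.

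Total RNA came from kidney, heart and brain of the same 8 mice, with 1 Illumina bead array per tissue and mouse. All mice were of the C3HeB/FeJ strain and 18.5 weeks old. In each tissue 4 mice were heterozygous for the Kctd1 mutation L27N, an amino acid substitution, and 4 were wild type. A count of 5 wild type mice is given in the series' design, and arrays of 4 were analysed here. The 6 groups are called heterozygous kidney, wild type kidney, heterozygous heart, wild type heart, heterozygous brain and wild type brain. The labels give no sex. The Y-linked gene Eif2s3y was detected on all 24 arrays. Neither probe of Xist was detected on a kidney or brain array, and the Xist probe ILMN_3123341 was detected on 2 of the 8 heart arrays.

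The kidney filters plasma in glomeruli and reworks the filtrate along a chain of tubule segments. Proximal tubule cells take back most solutes across a brush border, secrete organic anions and cations, and conjugate or break down many small molecules. The thick ascending limb and the distal convoluted tubule recover sodium chloride through the cotransporters Slc12a1 and Slc12a3. KCTD1 is known as a repressor that binds transcription factors of the AP-2 family, and in mice both are known from the differentiation of the distal nephron. In whole-organ RNA, fewer cells of a type and less RNA per cell cannot be told apart.

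Transcription factors of the HNF1 family are known regulators of kidney tubule genes, and their binding motif is shown here in members' promoters because it was more frequent there than in promoters at large. RefSeq promoters on build GRCm38.p6 were found for 102 of the 122 genes, and the 250 bases before each annotated start were searched on both strands for the half-site GTTAAT, 1 free base N and the reverse half-site ATTAAC, a motif that reads the same on either strand. With at most 2 mismatches outside N, 18 of the 102 genes held a match at 1 or more of their starts, a share of 17.6%, against 1.45% of all 27025 genes with a promoter. With at most 1 mismatch these shares were 4.9% (5 genes) and 0.226%. The 5 genes were Ugt3a1, Cltrn, Ugt1a10, Sult1d1 and Errfi1, and the sequence of Errfi1 is not printed. A match says only that these letters stand in this window. The sequences below run 5′ to 3′ toward the start of the gene, with the match in capitals. The first 4 are member genes with 1 mismatch: Ugt3a1 and Ugt1a10, which encode glycosyltransferases that conjugate lipophilic compounds, Cltrn, which encodes collectrin, a partner of amino acid transporters in the brush border, and Sult1d1, a sulfotransferase. The last is Wfdc15b, with 2 mismatches, the member that differed between genotypes in kidney. They lie on chr15:9279579-9279828 (plus strand), chr1:88055161-88055410 (plus strand), chrX:164089937-164090186 (plus strand), chr5:87569007-87569256 (minus strand) and chr2:164221664-164221913 (minus strand).
Ugt3a1: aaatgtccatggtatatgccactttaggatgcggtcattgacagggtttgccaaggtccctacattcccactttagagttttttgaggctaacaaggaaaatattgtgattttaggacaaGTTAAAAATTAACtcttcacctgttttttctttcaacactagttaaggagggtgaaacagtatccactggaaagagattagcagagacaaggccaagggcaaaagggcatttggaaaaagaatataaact
Ugt1a10: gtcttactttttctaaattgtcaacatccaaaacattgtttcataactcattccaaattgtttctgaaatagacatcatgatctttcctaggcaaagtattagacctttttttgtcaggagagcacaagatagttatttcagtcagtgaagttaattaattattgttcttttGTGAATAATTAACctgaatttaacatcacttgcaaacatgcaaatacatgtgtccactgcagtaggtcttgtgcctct
Cltrn: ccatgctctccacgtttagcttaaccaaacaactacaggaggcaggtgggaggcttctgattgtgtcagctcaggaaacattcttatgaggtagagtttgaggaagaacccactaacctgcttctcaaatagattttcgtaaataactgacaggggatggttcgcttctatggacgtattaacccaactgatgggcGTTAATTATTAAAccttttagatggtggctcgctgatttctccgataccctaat
Sult1d1: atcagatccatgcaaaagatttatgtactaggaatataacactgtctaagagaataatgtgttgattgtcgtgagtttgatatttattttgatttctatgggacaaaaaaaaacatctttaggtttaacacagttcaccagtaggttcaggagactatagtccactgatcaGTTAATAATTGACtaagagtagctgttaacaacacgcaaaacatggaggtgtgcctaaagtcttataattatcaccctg
Wfdc15b: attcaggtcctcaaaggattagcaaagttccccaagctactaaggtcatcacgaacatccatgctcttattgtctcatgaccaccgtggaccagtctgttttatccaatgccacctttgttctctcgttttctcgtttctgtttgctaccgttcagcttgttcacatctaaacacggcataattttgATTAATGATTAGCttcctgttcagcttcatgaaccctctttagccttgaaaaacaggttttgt
Matches with 2 mismatches were also held by promoters of Umod, Slc12a1, Hsd3b4, Guca2b, Habp2, Cyp2e1, Nr1h4, Slc22a22, Tinag, F13b, Cldn10 and Hnf4a. The other motifs searched gave shares closer to those of all genes. The HNF4 motif CAAAGTCCA was in 1 of the 102 genes (0.98%, against 0.451% of all), TATAAA in 16 (15.7%, against 14.3%), and the AP-2 motif GCCNNNGGC in 14 (13.7%, against 15.4%). These motifs can overlap one another and were counted separately.

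The largest gap was 6.23 on the log2 scale, the median gap was 2.98 (7.89-fold), and the smallest was 2.08 (4.22-fold). A gap of at least 3 was held by 74 members, of at least 4 by 37, of at least 5 by 13 and of at least 6 by 3. Raw signal holds the background of the array, and array medians were 102 to 106 in kidney, 110 to 120 in heart and 109 to 118 in brain. The gap of a probe at background elsewhere therefore understates the ratio of transcript levels.

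The 10 largest gaps belonged to 9 genes. Ugt3a2, a glycosyltransferase, had a raw signal of 9172 to 11058 in kidney, against at most 114 in heart and 122 in brain. Slc34a1, the sodium-phosphate cotransporter of the proximal tubule, had 9132 to 11759 in kidney, against at most 140 in heart and 125 in brain. Napsa, the lysosomal aspartic protease napsin A, held a pair of places in this set with gaps of 6.21 and 5.91. The others were Dnase1, a secreted endonuclease (5.57), Pdzk1, a scaffold that holds transporters in the brush border (5.38), Miox, which opens the ring of inositol (5.30), Hsd3b4, a steroid dehydrogenase (5.22), Kap, the androgen-regulated kidney protein of mice (5.19), and Cyp4b1, a cytochrome P450 (5.19). All 10 were dim outside the kidney beside their kidney signal, and the plot of raw signal by rank shows this. Some were still detected there: Miox on 8 brain and 5 heart arrays, Slc34a1 on 2 and 4, and Kap on 1 and 3.

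**Figure D1:**
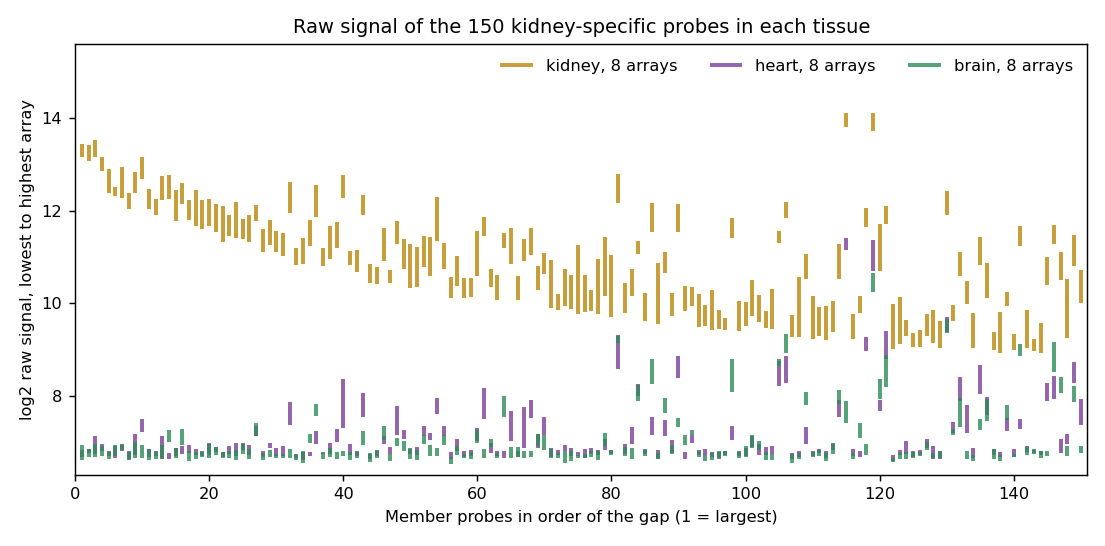
Raw signal of the 150 member probes in the order of the gap, as log2, with a bar from the lowest to the highest of 8 arrays for kidney, heart and brain. Kidney bars fall from about the level of Ugt3a2 (9172 to 11058) with rank, while Gpx3 and Gpx1 at ranks 115 and 119 are brighter than any other member and also bright in heart.

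At the edge of the list, Egf, Tmem176b and Slc47a1 (ILMN_2749842) entered last with a gap of 2.08 each. A second probe of Slc47a1 (ILMN_2849016), which encodes a transporter that extrudes organic cations into urine, was the next outside with a gap of 2.06, followed by Prr15l at 2.04 and Erich4 at 2.02. That outer Slc47a1 probe had a raw signal of 8667 to 10566 in kidney and 1435 to 2073 in heart. It was thus brighter in kidney than the inner probe (1033 to 1681), and its heart signal kept it out.

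After background correction and quantile normalization with neqc, members lay at a kidney level of 8.85 to 13.97 on the log2 scale, with a median of 10.85, against a median of 5.97 over the 10976 probes tested in kidney. At or above the dimmest member there were 1201 probes, of which members made up 12.5%. These 1201 include the members, were not matched to them by level, and are called the bright probes below. Members were 32 of the 100 brightest kidney probes and 5 of the 20 brightest. The brightest were Gpx3, the secreted glutathione peroxidase that kidney releases into plasma, Gpx1, its cytosolic relative, Slc34a1, Ugt3a2 and Napsa (ILMN_1230302).

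Solute carriers gave 14 member probes for 13 genes, out of 246 solute carrier probes tested in kidney. Among them were Slc22a6, which takes up organic anions from blood, Slc22a12 and Slc22a13, which handle urate and other anions at the luminal side, Slc27a2, a fatty acid transporter, and Slc5a8, which recovers monocarboxylates. Cytochromes P450 gave 10 probes for 7 genes, out of 37 tested. Catabolic enzymes included Fah for tyrosine, Haao for tryptophan, Upb1 for pyrimidines, Khk for fructose and Ass1 of arginine synthesis. Endocytosis of filtered protein was represented by Amn, the membrane partner of cubilin, and Dab2, an adaptor of megalin. Of the 42 tested probes of renal transcription factors only those of Hnf4a and Nr1h4, the bile acid receptor FXR, were members.

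Of the member probes on a list of nephron segment markers, 7 were on that of the proximal tubule, 5 on that of the thick ascending limb and 1 on that of the distal convoluted tubule, while most members were on none. Of 14 proximal tubule probes 7 were members, namely Slc34a1, Miox, Kap, Slc22a6, Slc27a2, Slc22a12 and Hnf4a. The thick ascending limb list gave 5 of 10 probes, for Umod, the urinary protein uromodulin, Slc12a1, and Egf, the growth factor made in the distal nephron. The distal convoluted tubule list gave 1 of 9, for Slc12a3. The lists of podocytes, of principal cells of the collecting duct and of intercalated cells gave none, from 4, 8 and 9 probes. As a check of the tissue, Slc34a1 and Umod were detected on all 8 kidney arrays, while Syt1 and Gfap of neurons and glia, Myh6 of cardiomyocytes, Cyp11a1 of the adrenal and Alb of hepatocytes were detected on 0 of the 8 kidney arrays. Cyp11a1 and Alb were also detected on 0 heart and 0 brain arrays. Other markers of these cells did reach detection in kidney: the 3 Mbp probes of myelin on 8, 4 and 0 arrays, Ttr on 8 and Apoa1 on 4 of the hepatocyte list, Actn2 on 2 and Tnni3 on 1 of the cardiomyocyte list, and 1 of the 2 Cyp21a1 probes of the adrenal on 1.

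A member's gene often had probes that were not members. Of the 122 genes, 41 had 67 further probes on the array, of which 54 were detected on at least 4 kidney arrays, 17 had a gap of at least 1, and 11 were detected on 0 kidney arrays. In the other direction, 5 genes (Napsa, Fxyd2, Serpinf2, Cyp2a5 and Rida) had 3 member probes each and 8 genes had 2. In RefSeq gene order (GRCm38.p6), 4 pairs of member genes were next to each other, namely Mfsd4b5 with Mfsd4b1, Ugt3a1 with Ugt3a2, Slc27a2 with Hdc, and Klk1b5 with Klk1. Probe sequences were not used here, so signal shared between close relatives such as the Klk1b, Cyp2a, Cyp2j or Ugt3a genes cannot be told apart from that of the named gene.

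All 150 members were detected on each of the 8 kidney arrays, detection being a p under 0.05 against negative control beads. In heart 72 members were detected on at least 4 of 8 arrays, and in brain 59. In both organs together it was 50, in heart alone 22, in brain alone 9, and in neither 69. On all 16 arrays 38 members were detected, and on 0 of 16 there were 44, among them Umod, Wfdc15b, Slc12a3, Slc12a1 and Guca2b, the gut and kidney peptide uroguanylin. Not detected means here not above background and does not show that a transcript was absent.

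Heart and brain differed for 84.0% of the 81 members tested on their 16 arrays, the same share as over all 14136 probes tested there (84.0%). The rule capped both levels but did not use the difference between them. Of the 81, 42 were higher in heart (51.9%, where 43.6% of all probes tested were) and 26 were lower in heart (32.1%, where 40.4% were), at an adjusted p under 0.05 in limma. The remaining 13 did not pass. A probe was tested where it was detected on at least 4 arrays of either organ, so 22 members entered through heart alone (19 higher in heart, 0 lower) and 9 through brain alone (0 higher, 8 lower), and for these the direction was largely set by entry. Of the 50 detected in both organs, 23 were higher in heart, 18 lower, and 9 did not pass. The median heart minus brain difference was 0.26 over these members and 0.03 over all probes tested, and 0.15 over the 50.

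Gpx3 showed the largest heart excess among these members. Its log2 level averaged 11.08 in heart and 6.57 in brain, which differ by 4.52 (SE 0.07, adjusted p = 5.56e-23 in limma). Adh1 (ILMN_2850077), an alcohol dehydrogenase, followed among named genes with a difference of 2.78. The probes ILMN_1247071, ILMN_1248318 and ILMN_1240165, without a symbol, completed the 5 largest with differences of 4.31, 3.18 and 2.62. On the other side stood Cyp7b1, an oxysterol hydroxylase, with 4.90 in heart and 7.61 in brain, which differ by −2.71 (SE 0.11, adjusted p = 2.52e-15 in limma). Amn, Mdk, which encodes the growth factor midkine, and the Rida probes ILMN_2610706 and ILMN_2610703, for an imine deaminase of amino acid breakdown, differed by −2.64, −2.27, −1.98 and −1.97. For each of these 10 probes the raw signals of the 8 heart arrays and the 8 brain arrays did not overlap. That was likely from the outset, since the probes were chosen by the size of this difference on the same arrays. Without background correction all 10 stayed called, and the 9 other than Gpx3 shrank by more than 1.5 times, Amn the most. The differences were then 2.30, 1.35 and 1.04 for the unnamed probes in the order above, 1.11 for Adh1, −1.24 for Cyp7b1, −1.50 for Mdk, and −1.13 and −1.18 for Rida.

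The median spread of members between mice was a little above that of the bright probes and below that of all tested probes. The SD between the 4 heterozygous kidneys had a median of 0.138 over members, 0.123 over the 1201 bright probes and 0.152 over all tested probes. Between the 4 wild type kidneys these medians were 0.13, 0.116 and 0.155. The rule favours a small spread, since the lowest kidney array sets the gap, so these are descriptions. Kidney arrays correlated at 0.949 to 0.987 over the members.

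Among wild type kidneys the steadiest members were Selenop, the selenium carrier of plasma, with levels of 12.07, 12.07, 12.03 and 12.08, Slc34a1 with 13.30, 13.24, 13.30 and 13.24, and Cdh16, the kidney cadherin, with 11.67, 11.61, 11.60 and 11.61. The most variable were both Slc12a1 probes and the Cyp2a5 probe ILMN_1229267, for a cytochrome P450. Slc12a1 probe ILMN_3124491 had 10.43, 10.02, 10.04 and 9.28 in wild type kidneys, with an SD of 0.48. One wild type mouse, replicate 4, was lowest for each of these 3 probes.

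That mouse was array number 5 of its tissue, and the array number moved with several members. The labels number the kidney arrays in a row; heterozygous mice were at numbers 2, 6, 7 and 8 and wild type mice at 1, 3, 4 and 5. With genotype in the same fit, 6 members (4%) differed between arrays 5 to 8 and arrays 1 to 4 at an adjusted p under 0.05 in limma, where 3.01% of all tested probes (330 of 10976) and 2.5% of the bright ones did. The members' share was thus near that of all tested probes. The cut between arrays 4 and 5 is not in the labels. It was set with earlier results of these data known, so this fit is no independent test of it. What the array number stands for is not given in the sources used here.

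Slc12a1 probe ILMN_3124491 moved most with the array number. On arrays 5 to 8 it had 9.19, 9.24 and 9.30 in heterozygous kidneys and 9.28 in the wild type one, against 10.18 in the heterozygous kidney and 10.43, 10.02 and 10.04 in the wild type kidneys on arrays 1 to 4. The difference was −0.91 (SE 0.12, adjusted p = 0.00232 in limma), and the array numbers separated all values while the genotypes overlapped. Its second member probe, ILMN_2633732, differed by −0.59, and the Cyp2a5 probes ILMN_2734598 and ILMN_1229267 by −0.75 and −0.67. Inmt, an amine methyltransferase, and Slc25a10, a dicarboxylate carrier of mitochondria, differed by 0.46 and 0.45. Without heterozygous replicate 1 or without wild type replicate 4 (each the only mouse of its genotype among its array numbers), 0 members passed in limma, and the difference of ILMN_3124491 was −0.88 and −0.93.

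Between genotypes in kidney, 1 of the 150 members differed at an adjusted p under 0.05 in limma, where 0.273% of all tested probes (30 of 10976) and 0.333% of the bright ones did. It was Wfdc15b (ILMN_3141801), a secreted protein of the WAP domain family of protease inhibitors, which was lower in heterozygous kidneys. None was called higher, where 0.146% of all were, and 0.128% of all were called lower. The median difference over members, heterozygous minus wild type, was 0.03, against 0.00 over all tested probes, and 146 of 150 members lay within 0.5 of 0. In 89 members (59.3%) the heterozygous mean was higher, as in 50.2% of all tested probes. The members' median was 0.06 within arrays 1 to 4 and 0.00 within arrays 5 to 8.

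**Figure D2:**
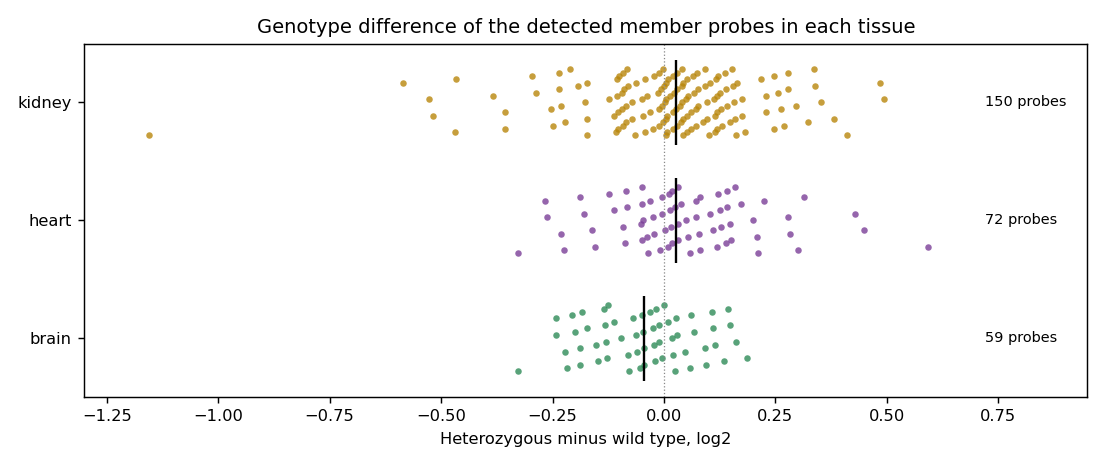
Difference of the heterozygous and wild type means on the log2 scale, 1 point per member probe detected in that tissue, with the median as a black bar and points spread vertically for sight. Medians were 0.03 in kidney (150 probes), 0.03 in heart (72) and −0.04 in brain (59), and 1 kidney point, Wfdc15b at −1.16, lies apart.

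Wfdc15b had a log2 level of 9.98, 9.79, 9.68 and 9.70 in heterozygous kidneys, against 11.18, 10.84, 11.01 and 10.73 in wild type kidneys. Every heterozygous kidney lay below every wild type one. The difference was −1.16 (SE 0.12, adjusted p = 0.000344 in limma). On the raw scale the signal was 880 to 1064 in heterozygous kidneys, against 1615 to 2472 in wild type kidneys. Within arrays 1 to 4, with 1 heterozygous and 3 wild type mice, the difference was −1.03, and within arrays 5 to 8, with 3 heterozygous and 1 wild type, it was −1.01. The other Wfdc15b probe, ILMN_1259467, ranked 597 by gap and no member, averaged 6.40 in heterozygous and 7.24 in wild type kidneys, which differed by −0.84 (SE 0.11, adjusted p = 0.00397 in limma).

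At an unadjusted p under 0.05 stood 23 members (15.3%), 12 of them higher and 11 lower in heterozygous kidneys, where 8.52% of all tested probes and 7.58% of the bright ones did. Without overlap between the 4 heterozygous and the 4 wild type values were 7 members with heterozygous above (2.3% of all tested probes) and 5 with heterozygous below (2.29% of all).

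**Figure D3:**
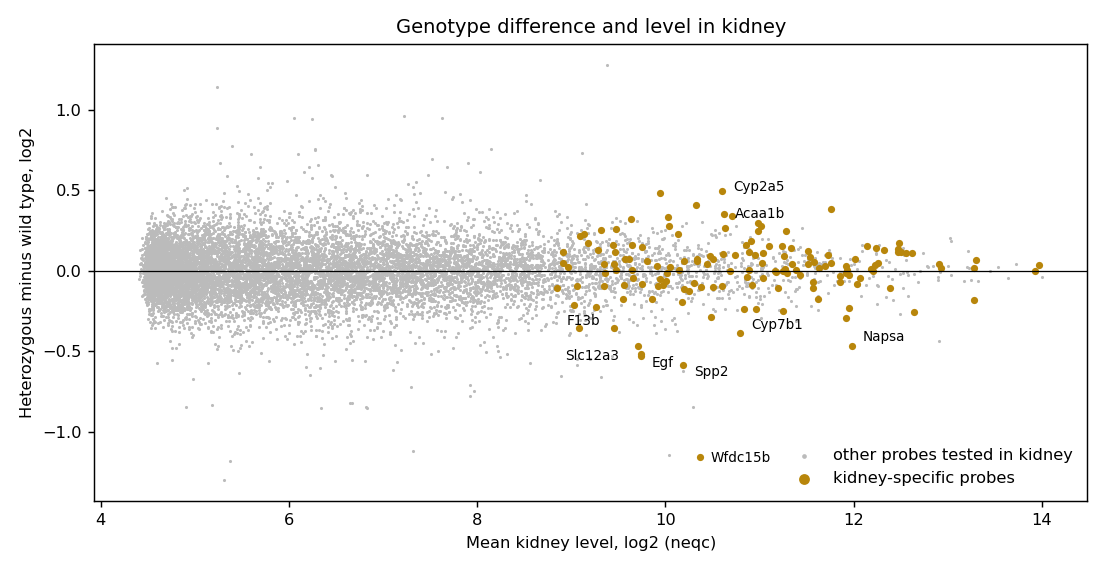
Heterozygous minus wild type difference in kidney (log2) against the mean kidney level (log2, neqc), for the 150 members and the other tested probes. Members sit at levels of 8.85 to 13.97, and named points are those with the smallest p, of which Wfdc15b passed the adjusted threshold.

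The 9 members next by p did not pass the adjusted threshold, and their values are given as such. Cyp2a5 (ILMN_3159131), which oxidises coumarin and nicotine, had 10.87, 10.58, 10.98 and 10.98 in heterozygous kidneys, against 10.31, 10.42, 10.23 and 10.48 in wild type kidneys. The genotypes did not overlap, and the difference was 0.49 (SE 0.11, adjusted p = 0.135 in limma). The other Cyp2a5 member probes, ILMN_2734598 and ILMN_1229267, differed by −0.10 and 0.04, so the probes of this gene disagreed in this fit. Both of these also differed by array number as described above, and this fit had no term for it. Within arrays 1 to 4 ILMN_3159131 differed by 0.55, and within arrays 5 to 8 by 0.37.

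Slc12a3 (ILMN_2756550), the thiazide-sensitive sodium chloride cotransporter, had 9.32, 9.46, 9.56 and 9.60 in heterozygous kidneys, against 10.01, 9.85, 9.82 and 10.33 in wild type kidneys. These values did not overlap either, and the difference was −0.52 (SE 0.12, adjusted p = 0.158 in limma). With the array numbers 1 to 4 and 5 to 8 as a block it was −0.68 (adjusted p = 0.0145 in limma), and it was −0.58 within arrays 1 to 4 and −0.78 within arrays 5 to 8. That block was the only 1 of 21 tested alternatives under which it passed; with the array number as a covariate it was −0.64 (adjusted p = 0.103 in limma), and with arrays shifted to a common median −0.42 (adjusted p = 0.531 in limma). A further Slc12a3 probe, ILMN_2797239, averaged 7.84 ± 0.05 in heterozygous and 8.34 ± 0.12 in wild type kidneys (SD, n = 4 each), a difference of −0.50 (adjusted p = 0.0547 in limma). Another, the dimmer ILMN_1229114, averaged 4.96 in heterozygous and 5.13 in wild type kidneys, with overlapping values. Its difference was −0.17 (SE 0.20, adjusted p = 0.848 in limma).

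Egf had 9.65, 9.19, 9.39 and 9.69 in heterozygous kidneys, against 10.39, 9.86, 10.14 and 9.64 in wild type kidneys. These overlapped through wild type replicate 4, and the difference was −0.53 (SE 0.16, adjusted p = 0.307 in limma). Spp2, a secreted phosphoprotein, differed by −0.59, Napsa probe ILMN_2657867 by −0.47, Cyp7b1 by −0.38 and F13b, a subunit of a clotting factor, by −0.36. Acaa1b, a peroxisomal thiolase, differed by 0.35 and the unnamed probe ILMN_1240165 by 0.38. Their adjusted p ran from 0.253 to 0.399 in limma. Within arrays 1 to 4 and within arrays 5 to 8 the differences kept their sign: −0.48 and −0.21 for Egf, −0.46 and −0.31 for Spp2, −0.33 and −0.24 for the Napsa probe, −0.13 and −0.48 for Cyp7b1, −0.14 and −0.29 for F13b, 0.51 and 0.21 for Acaa1b, and 0.22 and 0.20 for ILMN_1240165. These members were chosen by their p over the same arrays, so a kept sign was likely from the choice alone. The other Napsa probes, ILMN_1230302 and ILMN_2781030, differed by −0.18 and 0.02.

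**Figure D4:**
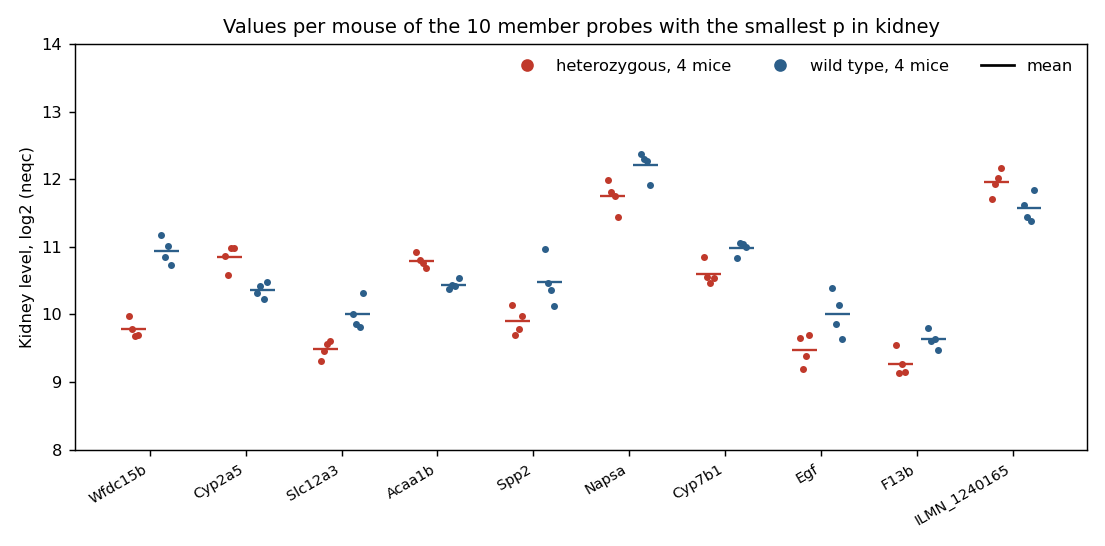
Kidney level per mouse (log2, neqc) of the 10 member probes with the smallest p, heterozygous in red and wild type in blue, with a bar at the mean of 4 mice. For Wfdc15b the heterozygous values (9.68 to 9.98) lie below the wild type values (10.73 to 11.18), and for Slc12a3, Cyp2a5 and Acaa1b the groups also do not overlap, with smaller distances.

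The members are described next by nephron segment, with the other probes of each list. On the proximal tubule list 0 of 13 tested probes were called, 11 had a higher heterozygous mean, and the median difference was 0.11, with 0.12 over its 7 members. Slc34a1 differed by 0.07, Kap by 0.11, Miox by 0.11, Slc22a6 by 0.17 and Slc22a12 by 0.28 (adjusted p = 0.534 in limma). The probes with a lower heterozygous mean were those of Slc5a2 at −0.30 (adjusted p = 0.542 in limma) and Slc22a8 at −0.05, neither a member. The thick ascending limb list had 0 of 9 called and a median of −0.08, with Umod at −0.01 and 0.03. Its Slc12a1 probes gave −0.47 (ILMN_3124491), −0.08 (ILMN_2633732) and −0.65 (ILMN_2746614, no member), none called, and both member probes differed by array number as described above.

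On the distal convoluted tubule list, the 6 tested probes all had a lower heterozygous mean, with a median of −0.42. An unadjusted p under 0.05 was reached by 5 of them (83.3%), where 8.52% of all tested probes did. Of the 6, 1 was called, that of the calcium-binding protein Pvalb, which is no member because it was brighter outside the kidney. Pvalb averaged 9.47 ± 0.08 in heterozygous and 10.61 ± 0.02 in wild type kidneys (SD, n = 4 each), a difference of −1.14 (adjusted p = 5.23e-05 in limma). The Trpm6 probes, for a magnesium channel, differed by −0.25 and −0.34 and were not called. The list's mean level was 6.83 to 6.95 in heterozygous kidneys, against 7.29 to 7.48 in wild type kidneys, without overlap. Of all tested probes taken singly, 2.29% had all heterozygous values below. How often means of other sets of probes do not overlap was not examined, for this list or those below.

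The collecting duct lists held a called probe each but no member. Scnn1b, a subunit of the epithelial sodium channel of principal cells, was higher by 0.67 (adjusted p = 0.0343 in limma), with 1 of 7 probes called and a list median of 0.10. Of these 7 probes 5 had a higher heterozygous mean and 2 a lower one. The lower ones were Aqp2 at −0.24 and Aqp3 at −0.13, neither called. Slc26a4, the chloride and bicarbonate exchanger pendrin of intercalated cells, was higher by 0.75 (adjusted p = 0.0377 in limma), with 1 of 5 probes called and a list median of 0.14. The podocyte list had 0 of 3 called and a median of −0.07. Of the red cell markers, Hba-a1 differed by −0.44 and Alas2 by −0.31, neither called, and the mean of these 2 probes was 9.00 to 9.30 in heterozygous kidneys, against 9.34 to 9.77 in wild type kidneys. The part of blood content in the members' differences was not tested.

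**Figure D5:**
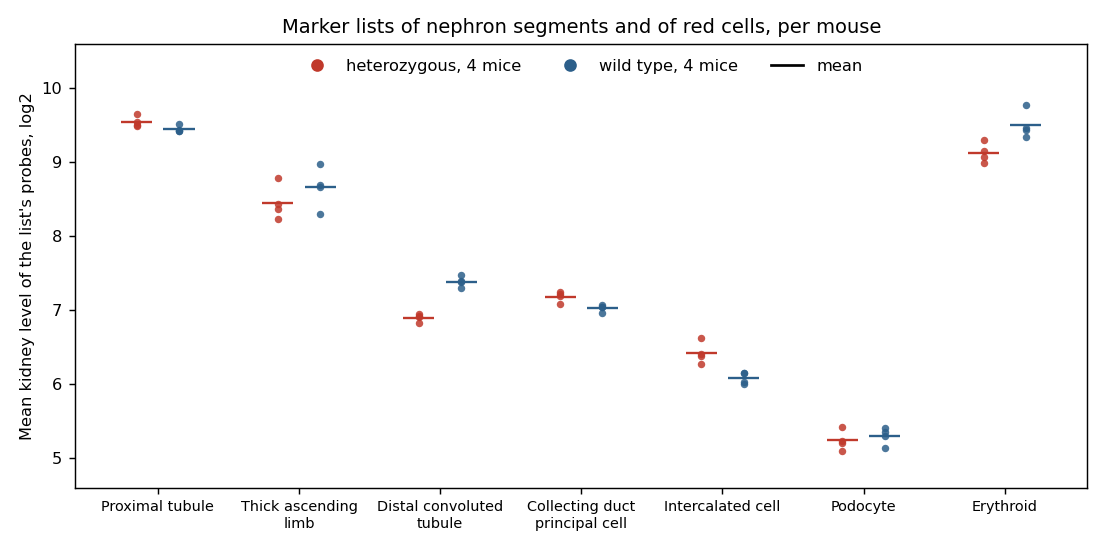
Mean kidney level (log2, neqc) over the tested probes of each marker list, 1 point per mouse, heterozygous in red and wild type in blue, with a bar at the mean of 4 mice. Heterozygous and wild type points do not overlap on the distal convoluted tubule (6.83 to 6.95, against 7.29 to 7.48), principal cell, intercalated cell and erythroid lists, and overlap on the others. How often means of other sets of probes do not overlap was not examined.

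Among the functional lists, few probes passed the adjusted threshold. Of 246 solute carrier probes 2 were called higher and 1 lower, none of them among the 14 members, whose median was 0.07. None of the 37 cytochrome P450 probes was called, though 10 of them (27%) reached an unadjusted p under 0.05, where 8.52% of all tested probes did. The 10 members had a median of 0.02. Of 12 organic ion transport probes 0 were called and the 4 members had a median of 0.15. The brush border list had 0 of 8 called and 3 at an unadjusted p under 0.05, with its member Cltrn at −0.04. On that list the probes of Mep1b, a subunit of the protease meprin, disagreed at −0.85, −0.82 and 0.06. The renal transcription factor list had 0 of 42 called and 8 (19.0%) at an unadjusted p under 0.05, and its mean level was 6.12 to 6.19 in heterozygous kidneys, against 6.06 to 6.11 in wild type kidneys, without overlap. The vitamin D list had 0 of 5 called, with Vdr, the vitamin D receptor, at 0.23, and the gluconeogenesis list 0 of 7, with Fbp1, the fructose bisphosphatase, at 0.34 (adjusted p = 0.454 in limma). Of the 7 tested probes of genes known to depend on sex in mouse kidney 4 were members, Kap, Cyp4a12a, Cyp7b1 and Cyp2j13, with a median of 0.04 and 0 called. The amino acid list had 0 of 18 called and the list of injury genes 0 of 3, with no member on either. Of the injury genes, Lcn2, an iron carrier released on tubule damage, was higher by 0.52 (adjusted p = 0.253 in limma). Its heterozygous values lay above the wild type ones without overlap, as for 2.3% of all tested probes. Havcr1 went the other way at −0.40, and Vcam1 differed by 0.17 (adjusted p of 0.498 and 0.814 in limma). No probe of the annotation used was named Kctd1, so its level was not analysed here; of 6 probes for its family and AP-2 0 were called and 0 were members, and 3 probes of the AP-2 gene Tfap2b differed by 0.30, 0.39 and 0.47, each at an unadjusted p under 0.05.

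In heart and brain no member passed the test between genotypes in limma. In heart 72 members were tested and 0 called, as 0 of all 12004 probes were (0%), and 3 members (4.17%) reached an unadjusted p under 0.05, where 4.75% of all did. These were Ass1, of arginine synthesis, at 0.43, the unnamed probe ILMN_2840533 at 0.28, and Nox4, a NADPH oxidase first known from kidney, at −0.33, each with an adjusted p of 0.927 in limma. In brain 59 members were tested and 0 called, as 0 of all 12608 probes were (0%). There Ldhd (ILMN_2639662), which oxidises D-lactate, at −0.33, and Pter, at −0.22, made up the 2 (3.39%) with an unadjusted p under 0.05, where 7.1% of all did. The median difference was 0.03 in heart and −0.04 in brain. In heart no member had all heterozygous values above wild type (1.32% of all probes did) and 1 had all below (1.26% of all), and in brain these counts were 0 (1.86% of all) and 3 (2.07% of all).

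The genotype difference itself was compared between tissues on the 24 arrays normalized together. Of the 150 members 2 differed by tissue at an adjusted p under 0.05 in the F test of limma, where 0.317% of all probes (47 of 14835) did. For Wfdc15b the kidney minus heart term was −1.05 and the kidney minus brain term −1.08 (SE 0.12 each, adjusted p = 5.43e-06 in limma). For Slc12a3 (ILMN_2756550) these terms were −0.45 and −0.57 (SE 0.12 each, adjusted p = 0.0443 in limma), and the call ended without any 1 mouse (adjusted p of 0.0905 to 0.198). Both probes were detected on 0 of 16 heart and brain arrays, so the terms set the kidney difference against differences at background. At an unadjusted p under 0.05 were 17 members (11.3%), where 6.5% of all probes were. All 150 members passed the filter in kidney, and 69 did so in neither heart nor brain. For these 69 too the terms set the kidney difference against background. The share of 11.3% is thus not separate from that in kidney alone (15.3%).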

How the data were processed

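Per the file headers, the table deposited by the authors has 2 columns per array, a linear bead intensity and the detection p-value of each probe. The submitters' processing notes name GenomeStudio 2011.1, and for the steps before deposit nothing is given in the sources used here. A second deposited table holds the authors' processed intensity values, 23.2% to 26.1% of them below 0 on each array, and was used as an alternative. Probes were matched to genes by GEO's platform annotation (23978 of 25697 probes had 1 symbol, 1719 none, 0 several). Symbols were then updated to that of RefSeq for the same Entrez gene, where RefSeq held the gene.

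Within each tissue, neqc of limma 3.58.1 in R 4.3.3 corrected the background through the detection p-value, added an offset of 16 and quantile-normalized on the log2 scale, which gives the brightest probes tied values. A probe was fitted where 4 or more of the 8 arrays detected it (p under 0.05), using lmFit and eBayes, heterozygous minus wild type, with Benjamini-Hochberg adjustment over all probes tested and a threshold of 0.05. Heart minus brain and genotype by tissue were fitted on arrays normalized together, with the arrays of a mouse taken as independent. Replicates are separate mice, so p-values measure the spread between mice and arrays, and 4 mice per group limit the precision. The fits were tested on simulated data.

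Detected probes numbered 10692 to 11372 per kidney array, 11408 to 12649 per heart array and 12358 to 12979 per brain array, and arrays of a group correlated at 0.991 to 0.996. Mouse identifiers pair the arrays across tissues; deviations of the same mouse correlated at −0.0274 to 0.356 between kidney and heart, −0.0217 to 0.249 between kidney and brain and −0.00151 to 0.240 between heart and brain. Equal replicate numbers of heterozygous and wild type mice share only a number, with correlations of 0.00893 to 0.289 in kidney.

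The members, the marker and gene lists and the tests were chosen with earlier results of these data known. Members were named by extremes: the 10 largest gaps, the 3 on each side of the edge, the 5 brightest, the 10 smallest p for genotype in kidney, those called for genotype by tissue, the 5 most different each way between heart and brain, the 3 largest and 3 smallest SDs, the 5 strongest by array number, genes with several member probes, and members on a list. Other genes were named from the lists after their values were seen. Alternatives covered background correction, offset, normalization, filter, spread estimate, array weights, blocks, size of the list and leaving out each replicate.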

Additional observations from a re-analysis of the deposited data

Results flagged for a closer look

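For 2 members the genotype difference differed between tissues in the F test of limma. The kidney minus brain term was −1.08 for Wfdc15b (ILMN_3141801) and −0.57 for Slc12a3 (ILMN_2756550), and both probes were at background in heart and brain.

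The named members alone were examined, as 116 kidney groups of 4 mice of a genotype. In 8 of these groups (6.9%), 1 mouse stood apart from the other 3. Its gap to its neighbour, as a ratio to the group's range, was above Dixon's 95% critical value. Chance gives about 1 in 20 for probes not chosen by their values. These probes were named by extremes, spread among them, and tied values gave ratios of 1. The share therefore cannot be compared with chance. Among heterozygous kidneys, replicate 1 was high for Slc12a1 (ILMN_3124491), at 10.18 against 9.19 to 9.30 in the others, a ratio of 0.896, and low for Ldhd (ILMN_2639662), with a ratio of 0.869. Replicate 3 was low for Fxyd2 (ILMN_1251018), at 11.51 against 11.62 to 11.64, a ratio of 0.864. Replicate 4 was high for Gpx3 and replicate 1 for Gpx1, each with a ratio of 1, where the other 3 values were tied by quantile normalization at 13.97 and 13.89. Among wild type kidneys, replicate 4 was high for Inmt, at 12.69 against 12.01 to 12.10, a ratio of 0.864, and for the unnamed probe ILMN_1248318, at 10.84 against 10.46 to 10.48, a ratio of 0.938. Replicate 2 was low for Rida (ILMN_2610706), with a ratio of 1 and the other 3 values tied at 11.66. Heterozygous replicate 1 and wild type replicate 4 were the only mice of their genotype among their array numbers.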

How the results depend on the processing

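Wfdc15b kept its call in kidney under the 21 alternatives that gave a test (−1.29 to −0.99, adjusted p of 9.67e-06 to 0.0180 in limma). The count of called members, 1, became 2 with a trended and robust spread, where Cyp2a5 (ILMN_3159131) joined, and 2 with array numbers 1 to 4 and 5 to 8 as a block, where Slc12a3 joined. It became 8 of 272 called over all probes without heterozygous replicate 1 and wild type replicate 4, an alternative added after the data were examined, in which genotype and array number cannot be told apart. It was 1 to 1 without each replicate. With the replicate block it was 1 in kidney (43 called over all probes), 0 in heart and 0 in brain, and with the mouse as a replicate block the members called by tissue stayed at 2 (49 over all probes). The mouse block moved the members higher in heart than brain to 43, against 42, and no replicate block changed a member's genotype call. The count by tissue was 1 with the array number as a covariate, 1 with a trended and robust spread, and 1 to 3 without each replicate. The count by array number was 11 with no correction for background, 3 with no filter on detection, and 0 to 6 without each replicate. The cause was not tested. With arrays shifted to a common median instead of quantile normalization, the median difference of members was 0.11 in kidney and −0.10 in heart. Counts of 0 in heart and in brain held under the 20 alternatives each. Choosing members from heterozygous or from wild type arrays alone shared 146 and 144 of the 150, neqc values 123 and the authors' processed values 122, each with 1 called; lists of 100 and 300 also had 1. Without background correction the median genotype difference of members was 0.01 in heart and −0.01 in brain, smaller than with it (0.03 and −0.04).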
